A study of Homo sapiens with 5 samples.

Results

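The miR-106b-25 cluster consists of 3 miRNAs, miR-106b, miR-93 and miR-25, whose hairpins lie in an intron of MCM7, the gene of a subunit of the replicative DNA helicase. Its members were taken by probe name (hsa-miR-106b, hsa-miR-93 and hsa-miR-25), giving 3 of the 734 miRNA probes of a NanoString nCounter panel (Human v2), an assay that counts fluorescent barcodes bound to each target without amplification. RNA came from Caco2 cells, an established line from a human colorectal tumour whose cells polarise into an epithelium. The cells had been infected and selected with an shRNA directed at PLEKHA7 (shPLEKHA7, n = 3) or with a non-target shRNA (NT, n = 2), so all 5 lanes come from infected and selected cells of a single line. The design text describes independent infection sets. The titles number the shPLEKHA7 samples 1, 2 and 3 and the NT samples 1 and 3, and groups follow the titles, although the source field of shPLEKHA7 replicates 2 and 3 has a different number after PLEKHA.

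PLEKHA7 is a protein of the apical adherens junction and has been described to hold part of the Microprocessor there, the Drosha and DGCR8 complex that cuts miRNA hairpins out of their primary transcripts. The miR-106b-25 cluster is a paralog of the miR-17-92 and miR-106a-363 clusters. These clusters promote proliferation and survival and are known to be raised in many epithelial tumours. Transcription of MCM7, and with it of the cluster, is known to be driven by E2F and MYC. miR-93 and miR-106b are best known for repressing CDKN1A, the cell cycle inhibitor p21, and miR-25 for repressing BCL2L11, the pro-apoptotic protein BIM.

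The mature sequences are printed because the members fall into different seed groups, which decide the relatives they are compared with. All 3 panel targets equalled a RefSeq mature miRNA (GRCh38.p14, chromosome 7, minus strand). The counted strands are miR-106b-5p at chr7:100094043-100094063, miR-93-5p at chr7:100093815-100093837 and miR-25-3p at chr7:100093571-100093592, all within the MCM7 gene, and together they span 493 bases. Capitals mark the seed (bases 2 to 8), 5′ to 3′.
miR-106b-5p: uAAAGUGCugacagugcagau
miR-93-5p: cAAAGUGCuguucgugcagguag
miR-25-3p: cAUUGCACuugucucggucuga
miR-106b and miR-93 thus carry the same seed, AAAGUGC, while miR-25 carries AUUGCAC. Aligned from the 5′ end without gaps, miR-93 and miR-106b share 16 of 21 positions, and miR-93 and miR-25 share 9 of 22. The hairpins of miR-106b and miR-25, with the counted strand in capitals, show that it lies on the 5′ arm in the first (bases 12 to 32 of 82) and on the 3′ arm in the second (bases 52 to 73 of 84).
miR-106b hairpin: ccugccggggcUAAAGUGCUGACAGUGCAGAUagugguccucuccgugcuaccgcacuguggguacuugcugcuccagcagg
miR-25 hairpin: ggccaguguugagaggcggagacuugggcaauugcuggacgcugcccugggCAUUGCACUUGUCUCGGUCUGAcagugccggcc
None of the opposite arms (miR-106b-3p, miR-93-3p, miR-25-5p) had a probe among those analysed, and neither MCM7 nor PLEKHA7 was measured here, so the knockdown was not analysed.

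Each lane held 32138 to 58298 miRNA counts. The limit of detection, the mean plus 2 SD of the 8 negative-control probes of a lane, ran from 11 to 24.5 counts. The numbers ending the lane names place both NT lanes before all shPLEKHA7 lanes, so group and place in the run cannot be told apart. All 5 markers of epithelium (the miR-200 family) were above the limit in every lane. Their summed normalized count was 1431 to 1515 in shPLEKHA7 lanes and 1639 to 1684 in NT lanes, and the part of this difference in the values of the cluster was not tested. Of the intestinal markers 2 of 3 were above the limit in every lane, with sums of 503 to 736 in shPLEKHA7 lanes and 542 to 575 in NT lanes. Of 6 blood cell markers 2 were above the limit in every lane, while miR-451, miR-144 and miR-150 exceeded it in none. Of 5 stroma markers 2 were above it in every lane, while miR-143 and the joint miR-199a-3p and miR-199b-3p probe exceeded it in none. The summed counts of these lists were 118 to 143 (blood) and 103 to 120 (stroma) in shPLEKHA7 lanes, against 124 to 127 and 99.6 to 117 in NT lanes.

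All 3 cluster members were well measured, and none differed between shPLEKHA7 and NT cells beyond the spread between replicates. miR-25 gave the most counts in every lane, miR-106b the next and miR-93 the fewest, although probes differ in capture, so this order is one of counts and not of molecules. miR-25 ranked between 19 and 25 among the 734 miRNA probes, miR-106b between 29 and 35, and miR-93 between 32 and 47. Their counts were 18.9 to 26.3, 7.52 to 14.2 and 5.88 to 8.56 times the limit of detection. In bulk RNA, fewer cells holding a miRNA and less of it per cell cannot be told apart.

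miR-25 had raw counts of 479, 283 and 532 in shPLEKHA7 replicates 1, 2 and 3, against 310 and 389 in NT replicates 1 and 3. After TMM scaling, which sets the lanes to a common level through the bulk of the tested probes, these became 437, 389 and 402 normalized counts in shPLEKHA7 cells and 393 and 366 in NT cells. The groups overlapped, since shPLEKHA7 replicate 2 lay below NT replicate 1. The means were 409 ± 24.8 in shPLEKHA7 cells (SD, n = 3) and 379 ± 19.3 in NT cells (SD, n = 2), a log2 fold change of 0.11 (SE 0.13, 95% interval -0.18 to 0.40, edgeR quasi-likelihood adjusted p = 0.658). Only 6 of the 204 tested probes had a smaller SE than miR-25, so this is among the most tightly measured differences on the panel.

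miR-93 had raw counts of 176, 83 and 173 in shPLEKHA7 replicates 1, 2 and 3, against 92 and 121 in NT replicates 1 and 3. Its normalized counts were 160, 114 and 131 in shPLEKHA7 cells and 117 and 114 in NT cells. Here shPLEKHA7 replicates 1 and 3 lay above both NT lanes and replicate 2 between them. The means were 135 ± 23.5 in shPLEKHA7 (SD, n = 3) and 115 ± 2.0 in NT cells (SD, n = 2), a log2 fold change of 0.24 (SE 0.18, 95% interval -0.15 to 0.64, adjusted p = 0.467). Without shPLEKHA7 replicate 1 the log2 fold change was 0.09, so that lane carried most of the difference.

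miR-106b had raw counts of 184, 119 and 286 in shPLEKHA7 replicates 1, 2 and 3, against 134 and 195 in NT replicates 1 and 3. The normalized counts were 168, 163 and 216 in shPLEKHA7 cells and 170 and 183 in NT cells. shPLEKHA7 replicate 3 was the highest lane, while replicates 1 and 2 lay just below both NT lanes. The means were 183 ± 29.3 in shPLEKHA7 (SD, n = 3) and 177 ± 9.5 in NT cells (SD, n = 2), a log2 fold change of 0.06 (SE 0.16, 95% interval -0.31 to 0.43, adjusted p = 0.885). Without shPLEKHA7 replicate 3 the log2 fold change was -0.09.

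**Figure D1:**
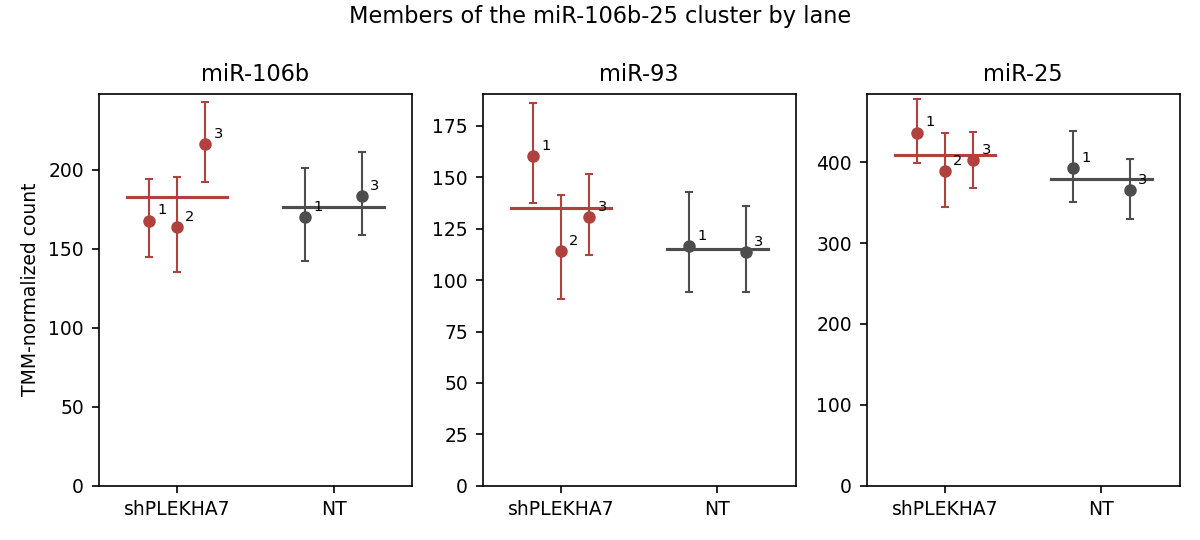
TMM-normalized counts (y axes, from 0) of the 3 cluster members in each shPLEKHA7 lane (left, red) and NT lane (right, grey), numbered by replicate. Bars are 95% Poisson intervals of the raw count on the normalized scale and cover counting error only, and horizontal lines are group means. The groups overlap for every member, and the highest lane is shPLEKHA7 replicate 3 for miR-106b (216) but shPLEKHA7 replicate 1 for miR-93 (160) and miR-25 (437).

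Thus 0 of the 3 members passed an adjusted p of 0.05, where edgeR passed 6.37% of the 204 tested probes (13 in all, with 2.45% higher and 3.92% lower in shPLEKHA7 cells). Unadjusted p-values of the members were 0.742 for miR-106b, 0.201 for miR-93 and 0.403 for miR-25, so none lay under 0.05 either. Their groups overlapped in all 3 cases, whereas normalized counts did not overlap for 48% of tested probes (26% higher and 22.1% lower). The median of the 3 log2 fold changes was 0.11, beside 0.06 over all tested probes. As a fold of shPLEKHA7 over NT, the 95% intervals ran from 0.80 to 1.34 for miR-106b, from 0.90 to 1.55 for miR-93 and from 0.88 to 1.32 for miR-25. A change within these bounds could not be resolved with 5 lanes.

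Counting error accounted for a different part of the spread in each group. In shPLEKHA7 cells the SD between lanes was 29.3 normalized counts for miR-106b, 23.5 for miR-93 and 24.8 for miR-25, beside 13.4, 11.6 and 20.3 that counting alone would give. In NT cells the SDs of 9.5, 2.0 and 19.3 were all below the counting values of 13.9, 11.3 and 20.5. The close match of the NT lanes, of miR-93 above all, is therefore nearer than counting error alone would lead to on average, and an SD of 2 lanes is a loose estimate.

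Within a lane the members can be set against each other without any scaling between lanes. miR-25 made up 57.1%, 58.4% and 53.7% of the summed raw count of the cluster in shPLEKHA7 replicates 1, 2 and 3, against 57.8% and 55.2% in NT replicates 1 and 3. miR-93 made up 21.0%, 17.1% and 17.5% in shPLEKHA7 lanes, against 17.2% in both NT lanes. miR-106b made up 21.9%, 24.5% and 28.9% in shPLEKHA7 lanes, against 25% and 27.7% in NT lanes. For each member both NT shares lay within the range of the shPLEKHA7 shares. shPLEKHA7 replicate 1 stood apart by its even share of miR-93 and miR-106b.

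That lane is described by the members that share a seed. Of the summed miR-106b and miR-93 count, miR-106b took 51.1% in shPLEKHA7 replicate 1 (exact 95% interval 45.8% to 56.4%), 58.9% in replicate 2 (51.8% to 65.8%) and 62.3% in replicate 3 (57.7% to 66.8%). In NT cells it took 59.3% in replicate 1 (52.6% to 65.8%) and 61.7% in replicate 3 (56.1% to 67.1%). The intervals of shPLEKHA7 replicates 1 and 3 do not overlap, so the lanes that differed most in this balance belong to the same group. These intervals cover counting error only.

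**Figure D2:**
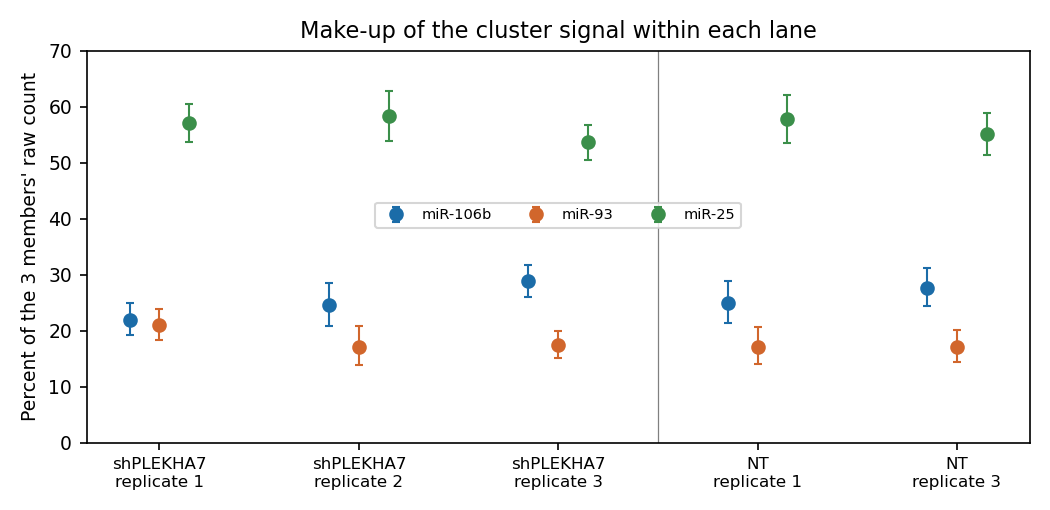
Share of each member in the summed raw count of the 3 members (y axis, percent) in each shPLEKHA7 lane (left of the line) and NT lane (right of it), with exact 95% binomial intervals that cover counting error only. miR-25 takes 53.7% to 58.4% in every lane, and miR-93 and miR-106b come closest in shPLEKHA7 replicate 1, at 21.0% and 21.9%.

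Ratios of raw counts were compared between the groups with 2-sided exact permutation tests, whose smallest possible p is 0.1 with 3 against 2 samples. The miR-25 to miR-93 ratio was 2.72, 3.41 and 3.08 in shPLEKHA7 lanes and 3.37 and 3.21 in NT lanes, a log2 difference of -0.11 (exact p = 0.5). The miR-25 to miR-106b ratio was 2.60, 2.38 and 1.86 in shPLEKHA7 lanes and 2.31 and 1.99 in NT lanes, a log2 difference of 0.07 (exact p = 0.7). The miR-93 to miR-106b ratio was 0.96, 0.70 and 0.60 in shPLEKHA7 lanes and 0.69 and 0.62 in NT lanes, a log2 difference of 0.18 (exact p = 0.8). In all of these the groups overlapped, and the last became -0.007 without shPLEKHA7 replicate 1.

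The 3 members together held 1.75%, 1.51% and 1.70% of the miRNA count in shPLEKHA7 replicates 1, 2 and 3, against 1.53% and 1.40% in NT replicates 1 and 3. The means were 1.65% ± 0.13 in shPLEKHA7 cells (SD, n = 3) and 1.47% ± 0.10 in NT cells (SD, n = 2), with shPLEKHA7 replicate 2 below NT replicate 1. This share moves with every other miRNA in the lane and is given without a test.

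The paralogous clusters miR-17-92 (chromosome 13) and miR-106a-363 (chromosome X) were represented by 8 probes, of which 7 were tested. All 7 had log2 fold changes above 0, as did 115 of all 204 tested probes, with a median of 0.27 beside 0.06 over all tested probes. miR-19a alone, 1 of the 7, passed the test, which 6.37% of all tested probes did. Under scaling to the spike-ins 3 of the 7 were above 0 and the median was -0.07, beside -0.27 over all tested probes. Compared with the 3 members of the miR-106b-25 cluster, whose median was 0.11, the difference was not tested. miR-363 exceeded its limit in 1 of 5 lanes and was not tested.

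miR-19a, which has no counterpart in the miR-106b-25 cluster, had raw counts of 60, 40 and 93 in shPLEKHA7 lanes and 17 and 34 in NT lanes. It averaged 60.0 ± 8.9 normalized counts in shPLEKHA7 cells and 26.8 ± 7.4 in NT cells (log2 fold change 1.15, SE 0.24, edgeR adjusted p = 0.0283), and the groups did not overlap. It missed the threshold without shPLEKHA7 replicate 3 (adjusted p = 0.0655), without a filter (0.0655) and in limma on the deposited values (0.0634). No DESeq2 adjusted p was available for miR-19a, so neither a pass nor a miss is read from DESeq2. Fits that kept 1 NT lane put miR-19a at log2 0.92 (NT replicate 3 kept) and 1.53 (NT replicate 1 kept), and no call is drawn from them. The close relative miR-19b had a log2 fold change of 0.37 (SE 0.15) without passing (adjusted p = 0.162), and miR-18a and miR-18b had 0.27 (SE 0.18) and 0.56 (SE 0.28). Groups did not overlap for these 3 either, with shPLEKHA7 higher, and none of them passed. Of the 7 tested probes, 5 were apart with shPLEKHA7 higher, the probe shared by miR-20a and miR-20b included, and 0 with it lower. Over all tested probes the shares were 26% and 22.1%.

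The miRNAs that share the seed AAAGUGC with miR-93 and miR-106b are shown because their sequences are close to those of the members. The probe for miR-106a and miR-17 and the probe for miR-20a and miR-20b each count a pair of miRNAs together.
miR-17-5p: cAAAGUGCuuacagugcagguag
miR-106a-5p: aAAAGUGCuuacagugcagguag
miR-20a-5p: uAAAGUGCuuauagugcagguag
miR-20b-5p: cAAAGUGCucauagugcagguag
miR-519d-3p: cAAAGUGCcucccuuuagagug
miR-93 shares 19 of 23 positions with miR-17 and as many with miR-20a, and miR-106b shares 18 of 21 with each. How far such targets are read by each other's probes was not tested.

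Of the 5 probes with this seed 4 were tested and none passed, where 6.37% of all tested probes did. Their median log2 fold change was 0.15, beside 0.06 over all tested probes. The probe shared by miR-20a and miR-20b, which gave the most counts, averaged 2258 ± 95.3 normalized counts in shPLEKHA7 cells and 1891 ± 146 in NT cells (log2 fold change 0.26, SE 0.12, adjusted p = 0.245). The probe shared by miR-106a and miR-17 averaged 100.2 ± 2.5 in shPLEKHA7 and 97.2 ± 31.1 in NT cells (edgeR adjusted p = 0.89, log2 fold change 0.06, SE 0.20). miR-519d stayed below the limit of detection in all 5 lanes. miR-93 and miR-106b together supplied 12.5%, 10.6% and 12.3% of the counts of this seed group in shPLEKHA7 lanes, against 11.9% and 13.7% in NT lanes. Most counts with this seed therefore came from the shared probes of the paralogous clusters in every lane.

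The second seed group holds miR-25 and the miRNAs with seed AUUGCAC, shown here because 1 of them, miR-92a, gives far more counts than miR-25.
miR-92a-3p: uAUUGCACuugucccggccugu
miR-92b-3p: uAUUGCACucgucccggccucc
miR-32-5p: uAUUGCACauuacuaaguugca
miR-363-3p: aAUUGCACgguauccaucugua
miR-367-3p: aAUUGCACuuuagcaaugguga
miR-25 and miR-92a share 18 of 22 positions. Of the 6 probes in this group 4 were tested and 0 passed, where 6.37% of all tested probes did. Of the 4, 3 were above 0, as were 115 of all 204 tested probes. Their median log2 fold change was 0.15, beside 0.06 over all tested probes. miR-92a, which both paralogous clusters encode, averaged 4906 ± 501 normalized counts in shPLEKHA7 cells and 4280 ± 771 in NT cells (edgeR adjusted p = 0.505, log2 fold change 0.20, SE 0.15). miR-25 supplied 7.41%, 7.05% and 8.26% of the counts of this group in shPLEKHA7 lanes, against 7.37% and 8.75% in NT lanes.

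miR-32 had raw counts of 31, 29 and 65 in shPLEKHA7 lanes and 17 and 23 in NT lanes. After scaling the groups did not overlap, with shPLEKHA7 higher, as for 26% of all tested probes. It averaged 39.1 ± 10.5 normalized counts in shPLEKHA7 and 21.6 ± 0.1 in NT cells (log2 fold change 0.86, SE 0.29), and at an edgeR adjusted p of 0.115 it did not pass. It did pass without shPLEKHA7 replicate 1 (log2 1.06, adjusted p = 0.0288), under total-count scaling (adjusted p = 0.0455) and with the replicate number as a block (adjusted p = 0.0461). miR-92b, at 46.0 ± 7.8 in shPLEKHA7 and 53.0 ± 21.8 in NT cells, had a log2 fold change of -0.19 (SE 0.28), which became 0.27 without NT replicate 1. miR-367 stayed below the limit in all lanes.

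Each member was also set against a close relative within the lane, again by exact permutation. The miR-25 to miR-92a ratio was 0.082, 0.078 and 0.092 in shPLEKHA7 lanes and 0.081 and 0.098 in NT lanes (log2 difference -0.09, exact p = 0.6). The ratio of miR-93 to the probe shared by miR-20a and miR-20b was 0.073, 0.051 and 0.055 in shPLEKHA7 lanes and 0.058 and 0.064 in NT lanes (log2 difference -0.04, exact p = 0.9). The ratio of miR-106b to the probe shared by miR-106a and miR-17 was 1.69, 1.59 and 2.20 in shPLEKHA7 lanes and 1.43 and 2.44 in NT lanes (log2 difference -0.05, exact p = 1). Groups overlapped in each, and over the 6 ratios tested every Benjamini-Hochberg adjusted p was 1. For the last ratio the NT lanes themselves lay farther apart than the shPLEKHA7 lanes.

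Relatives whose seed is the miR-17 seed shifted by 1 base are known from pluripotent stem cells. A list fixed by name held 11 such probes, of which 6 were tested. The panel sequences were not searched for others. Of these 6, miR-302a and miR-302d passed, beside 6.37% of all tested probes. miR-302a had a log2 fold change of 0.92 (SE 0.22, edgeR adjusted p = 0.0399). miR-302d had raw counts of 35, 24 and 45 in shPLEKHA7 lanes and 10 and 18 in NT lanes, with both NT counts below the limits of their lanes. It entered the test through the shPLEKHA7 lanes alone, so its call (edgeR adjusted p = 0.0317) was favoured by the filter and its fold is not measured. Neither passed under housekeeping or spike-in scaling, without a filter or in limma on the deposited values. No DESeq2 adjusted p was available for either, so neither a pass nor a miss is read from DESeq2. miR-302d also did not pass without shPLEKHA7 replicate 3 (edgeR adjusted p = 0.0759). Fits that kept 1 NT lane put miR-302a at log2 0.98 (NT replicate 3 kept) and 0.89 (NT replicate 1 kept). They put miR-302d at 0.96 and 1.42, in the same order, and no call is drawn from them. miR-302c, with 25, 12 and 29 counts in shPLEKHA7 lanes and 9 and 20 in NT lanes, likewise exceeded the limit in shPLEKHA7 lanes alone and did not pass. miR-302b was at a log2 fold change of 0.75 (SE 0.25), while the high-count miR-372 and miR-373 were at -0.31 (SE 0.14) and -0.19 (SE 0.12). The 5 miR-520 probes of this list stayed below the limit in every lane.

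**Figure D3:**
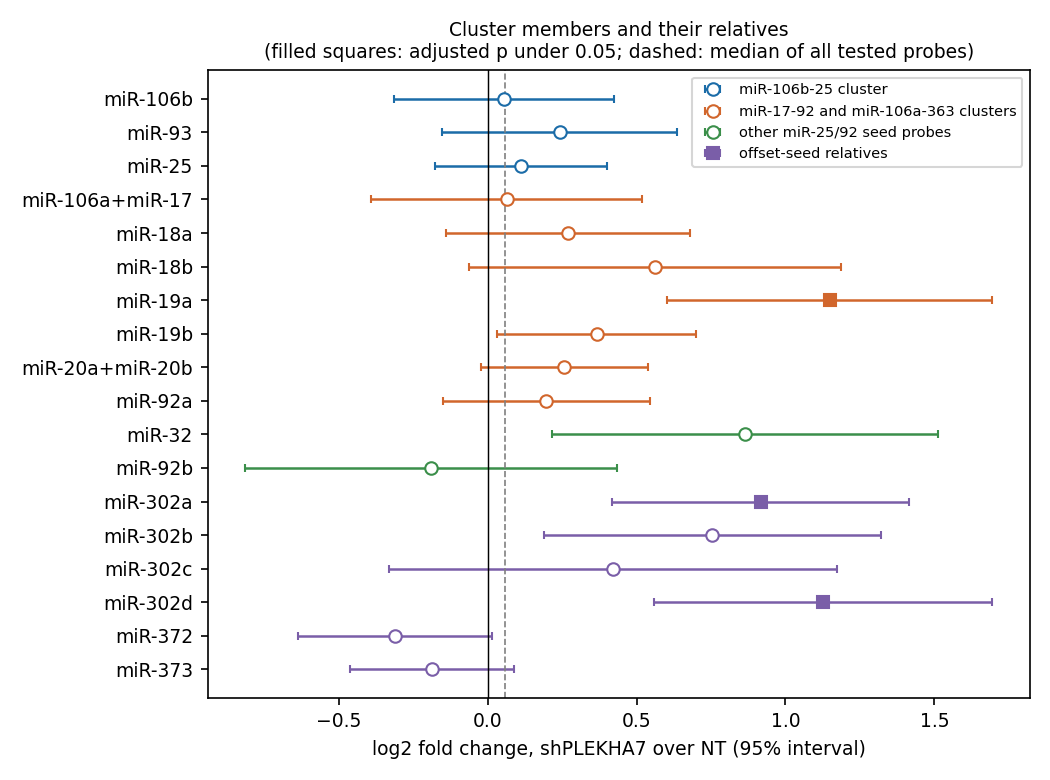
Log2 fold change of shPLEKHA7 over NT (x axis) with its 95% interval for the cluster members, the paralogous clusters, the remaining probes with the miR-25 seed and the offset-seed relatives, from the edgeR fit with 3 shPLEKHA7 and 2 NT lanes. The intervals of miR-106b, miR-93 and miR-25 all include 0, and miR-19a, miR-302a and miR-302d are the filled squares that passed an adjusted p of 0.05. miR-302c and miR-302d were below the limit of detection in both NT lanes, so their plotted folds are against background.

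The probes most like the cluster were found by the root-mean-square distance, over the 5 lanes, between centred log2 normalized counts and the mean profile of the 3 members. The nearest 5 were miR-548g (0.08), miR-194 (0.10), miR-651 (0.10), miR-584 (0.11) and the probe shared by miR-20a and miR-20b (0.11), beside a median of 0.31 over the other tested probes. They were chosen over the lanes compared here, so their log2 fold changes are a description, from 0.03 for miR-584 to 0.26 for the shared probe. Among the members themselves, miR-93 and miR-25 were 0.12 apart, miR-106b and miR-25 0.18, and miR-106b and miR-93, which share a seed, 0.24. Flat profiles are near one another by this measure whatever their source.

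The direction of the members depended on how the lanes were scaled. Under scaling to the spike-ins, control targets put into every hybridisation, all 3 were below 0, with log2 fold changes of -0.27 for miR-106b, -0.10 for miR-93 and -0.23 for miR-25. That scaling moved the median of all tested probes to -0.27, beside which the median of the 3 members was -0.23. Under scaling to the housekeeping mRNAs, which the deposited normalized values carry, they were at 0.002, 0.18 and 0.05, with the median of all probes at -3.9e-05. None passed an adjusted p of 0.05 under any of 18 other settings, where the lowest was 0.295, for miR-93 with the replicate number as a block.

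**Figure D4:**
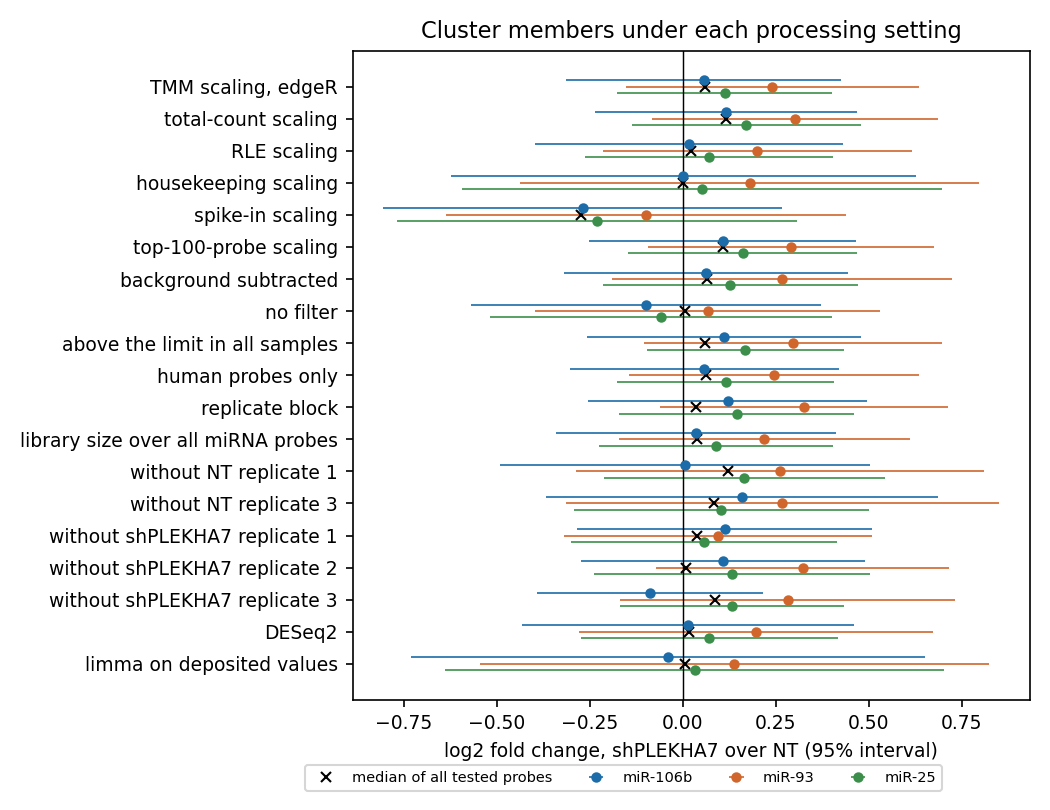
Log2 fold change of shPLEKHA7 over NT (x axis) with 95% intervals for miR-106b (blue), miR-93 (orange) and miR-25 (green) under TMM scaling and each alternative, with crosses for the median of all tested probes. All 3 members follow the crosses to the left under spike-in scaling, every interval includes 0, and miR-93 is the highest of the 3 in 18 of 19 settings.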

How the data were processed

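The authors deposited raw counts of reporter barcodes per probe and lane, read from the files as whole numbers with control probes kept, and a table of normalized signal. Comparison of both deposited tables showed that the signal of human probes is the count times 1 factor per lane, which equalises the 5 housekeeping mRNAs. Viral probes hold their raw counts there, so limma on the deposited values took scaled human and unscaled viral probes together. The software behind both deposited tables is not given in the sources used here. The 3 members and the lists of relatives were chosen with earlier results of these data known. Groups came from the sample titles.

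Raw counts of all miRNA probes above the limit of detection in at least 2 samples (204 of 734) were tested with the edgeR 4.0.16 quasi-likelihood test (R 4.3.3, TMM scaling, library sizes over tested probes, a choice made after seeing the count of calls under both) and adjusted by Benjamini-Hochberg over all of them. The test was tried on simulated data. The SE was obtained from the F statistic and the log2 fold change, and 95% intervals use the degrees of freedom of the fit. Ratios within lanes used exact permutation tests. Alternatives covered other scalings, DESeq2 1.42.0, limma 3.58.1 with a pseudocount of 1, filters, background subtraction with a floor of 1, a replicate block and leaving out each sample. Genes named were the members, all probes of the fixed lists and the 5 nearest probes. Sequences and positions are from RefSeq, GRCh38.p14. Of 654 human probes 557 matched a RefSeq mature sequence exactly. The baseline and signed fold columns of the normalized table were not used.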

Additional observations from a re-analysis of the deposited data

How the results depend on the processing

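None of the 3 members passed an adjusted p of 0.05 under any of 18 alternatives. miR-106b turned negative under spike-in scaling (-0.268), without a filter (-0.099) and in limma on the deposited values (-0.04), miR-25 under spike-in scaling (-0.23) and without a filter (-0.058), and miR-93 under spike-in scaling (-0.098). With a sample left out, log2 fold changes ran from -0.087 to 0.159 for miR-106b, from 0.094 to 0.322 for miR-93 and from 0.057 to 0.166 for miR-25. The median of all tested probes ran from -0.274 to 0.121 over the settings. edgeR passed 13 probes over the panel, against 20 under total-count, 6 under housekeeping and 33 under spike-in scaling and 22 with a replicate block. With a sample left out the count ran from 0 (without NT replicate 3, with 34 probes at an unadjusted p under 0.05) to 18. DESeq2 and limma passed 9 each, of which 0 in DESeq2 and 7 in limma were higher in shPLEKHA7 cells. The causes of these shifts were not tested.

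Same-numbered samples are not stated to share an infection set, and over 204 probes the deviations from their group means correlated at 0.03 for number 1 and 0.15 for number 3. The replicate block gave 0.121 for miR-106b, 0.326 for miR-93 and 0.145 for miR-25. Among the named relatives it also passed miR-19b (adjusted p = 0.0461), and total-count scaling passed miR-302b (adjusted p = 0.0455).

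Leaving out 1 sample, the log2 difference ran from -0.035 to 0.212 for miR-25 to miR-106b, from -0.007 to 0.324 for miR-93 to miR-106b, from -0.227 to 0.038 for miR-25 to miR-92a, from -0.195 to 0.063 for miR-93 to the probe shared by miR-20a and miR-20b, and from -0.432 to 0.341 for miR-106b to the probe shared by miR-106a and miR-17. Only miR-25 to miR-93 kept its sign, from -0.186 to -0.024. Background subtraction turned none of the 6.

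Among relatives, spike-in scaling turned the probe shared by miR-106a and miR-17 (-0.286), miR-18a (-0.07), miR-194 (-0.164), the probe shared by miR-20a and miR-20b (-0.083), miR-548g (-0.217), miR-584 (-0.294), miR-651 (-0.106) and miR-92a (-0.16). Without a filter the probe shared by miR-106a and miR-17 (-0.106), miR-548g (-0.047) and miR-584 (-0.13) were negative. miR-584 was also negative under RLE scaling (-0.004), housekeeping scaling (-0.024), background subtraction (-0.032) and limma (-0.053). With a sample left out, the probe shared by miR-106a and miR-17 ran from -0.209 to 0.412, miR-584 from -0.046 to 0.132 and miR-92b from -0.549 to 0.271. Uncalled relatives passed 5 times, counted per probe and fit. Of the called ones, with all samples kept, miR-19a passed in 10 of 12 alternatives, miR-302a in 8 of 12 and miR-302d in 7 of 11. DESeq2 is not among these alternatives, since no DESeq2 adjusted p was available for the called relatives. Library sizes over all miRNA probes, used at first, gave 17 probes passed, and sizes over the tested probes were adopted after seeing that count. miR-18b, miR-302c and miR-302d exceeded the limit of detection in 4, 3 and 3 of 5 lanes.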
